A study of Mus musculus with 8 samples.

Results

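Wild-type mouse embryonic fibroblasts (MEFs) grown in culture dishes were compared with tumours that the same cells formed in mice. The comparison uses the 4 arrays whose titles name wild-type (WT) TR MEFs, 2 from in vitro culture and 2 from allografts, of the 8 arrays in the series. The other 4 arrays hold Keap1–/– TR MEFs, called the Keap1 null line here, in the same pair of conditions. They show where the WT change differed and, in 1 fit over all 8 arrays, also enter the estimate of the spread and the choice of probes. For the allografts nu/nu (nude) mice received 10000000 cells of the WT or 3000000 of the Keap1 null line, and tumours were taken at 100 to 150 mm3. The labels of all groups add TR to the name of the cells and leave its meaning open. Each genotype is represented by 1 line, and the age and number of the mice are not given. RNA was prepared the same way from dishes and whole tumours, 500 ng of total RNA was labelled with Cy3, and each sample was hybridised to a 1-colour Agilent array. The labels do not say whether replicates 1 and 2 are separate cultures or animals, so each p-value measures only the spread between these samples, which may be technical.

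A fibroblast line in a dish is a single cell type in rich medium on plastic. A tumour grown from it also holds vessels, pericytes, macrophages and other cells of the host, and it lives on what the host supplies. Nude mice lack a thymus and have few mature T cells, while their macrophages, natural killer cells and mast cells are kept. KEAP1 is the adaptor through which cells degrade NRF2, the transcription factor encoded by Nfe2l2. NRF2 switches on genes of glutathione synthesis, detoxification and NADPH supply.

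Values are given as log2 levels, that is the log2 signal of a probe minus the log2 of the 75th percentile of its array, so 0 is that percentile. In 1 limma fit over all 8 arrays, 22922 targets were tested, each a gene or, where the design gave no symbol, a transcript. Calls were made where the p adjusted by Benjamini-Hochberg was under 0.05, and the words rose and fell are kept for called genes. Of the targets, 15600 (68.1%) were called, 8217 (35.8%) higher and 7383 (32.2%) lower in the allograft. At least 2-fold changes numbered 8773, of which 6371 were higher and 2402 lower, and changes of at least 8-fold were 2416 higher against 61 lower. These counts take signals below background as they stand. Of the targets called higher, 2675 were above background on both allograft arrays and on neither dish array, so the size of their change is uncertain. The arrays of the 2 groups did not overlap for 83.3% of targets. The median absolute difference was 0.77 between conditions, 0.19 between the dish arrays and 0.18 between the allograft arrays. Arrays correlated at 0.9938 in the dish pair, 0.9923 in the allograft pair and 0.9221 to 0.9276 across conditions, over targets, which are not independent replicates.

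The share of calls that were higher, 52.7% with the 75th percentile, depended on the scaling. It was 25.9% when arrays were centred on their median, 78.5% without scaling and 39.4% over probes above background on all arrays. The median change of all targets, -0.02, became -1.04 when arrays were centred on their median, -0.16 with quantile normalization and 0.36 without scaling. The median shift per target was -1.02, -0.37 and 0.38, so a change smaller than these is relative to the chosen scale. The allograft arrays had 71.64% and 74.75% of probes well above background and the dish arrays 60.58% and 64.39%. In all 2919 targets were above background on both allograft arrays and on neither dish array, and 75 were the other way round. Targets with a symbol had a median change of -0.21, with 4098 higher and 5951 lower. Those without a symbol had a median of 0.71, with 4119 higher and 1432 lower.

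**Figure D1:**
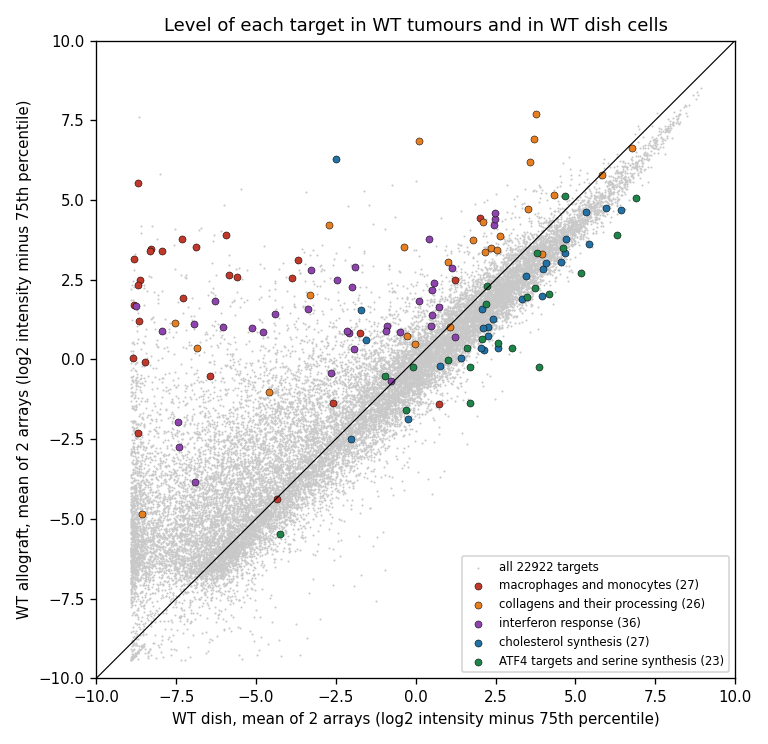
Mean log2 level of each of the 22922 targets on the 2 WT dish arrays (horizontal) and the 2 WT allograft arrays (vertical), with members of 5 gene lists coloured. The line marks equal levels: macrophage markers (median change 8.88), collagen genes (2.01) and interferon genes (2.97) lie mostly above it, and cholesterol (-1.2) and ATF4 genes (-1.45) mostly below it.

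Keap1 was read first because it names the other line. Its probe stood at 3.32 and 2.99 in the WT dish and at 2.85 and 2.46 in the WT allograft, a fall of 1.42-fold (-0.50 ± 0.17 SE, limma adjusted p = 0.0423). In the Keap1 null line the same probe stood at 2.37 and 2.22 in the dish and at 1 and 0.92 in the allograft. The position of the probe relative to the deleted part is not known, so it does not check the genotype. The WT call was lost under quantile normalization (-0.07), without scaling (-0.12), without WT dish replicate 1 (-0.34), without WT allograft replicate 2 (-0.31), when any 1 Keap1 null array was left out, over the 4 WT arrays alone and with no filter on dim probes. Nfe2l2 stood at 3.44 and 3.59 in the dish and 3.44 and 3.56 in the allograft, a difference of -0.01 ± 0.10 (adjusted p = 0.932). It was called higher under quantile normalization (0.44) and lower with median centring (-1.03).

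Among called targets with a symbol, the largest rises were in genes of macrophages. Lyz1, a lysozyme, stood at -8.59 and -8.8 in the dish, not well above background, and at 5.46 and 5.58 in the allograft, at least 4480-fold higher (14.21 ± 0.25, adjusted p = 9.34e-07). Folds written as at least N are bounds for genes not above background in the dim group. There the bright mean is divided by a floor, which on each dim array is the weakest signal that counts as above background or, if higher, the gene's own signal. Ctss, the cathepsin that trims the MHC class II invariant chain, went from -8.55 and -7.48 to 5.71 and 5.94, at least 5530-fold. Pf4, a chemokine stored in platelets and also made by some macrophages, went from -8.52 and -8.67 to 4.18 and 4.17, at least 1760-fold. In each of the 3 genes both dish arrays were at the bottom of the scale and both allograft arrays far above the 75th percentile. The rest of the 10 largest rises were Pirb (12.56), the complement gene C1qc (12.42), the monocyte chemokine Ccl12 (12.11), Adgre1 (11.97), which encodes the macrophage antigen F4/80, Ms4a7 (11.73), Trem2 (11.72) and Ms4a6b (11.65), by at least 864-fold to at least 1760-fold. Lyz1 and Lyz2, like members of the Oas, Gbp, Tgtp, H2, Mcpt, Lce and ribosomal protein families, have near-identical copies that a probe may not separate, so single values in these families are uncertain.

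The largest falls among such targets were smaller and of a different kind. Lce1g, a gene of the cornified envelope of skin, stood at -1.48 and -1.01 in the dish and at -8.19 and -6.99 in the allograft, 81.2-fold lower (-6.34 ± 0.84, adjusted p = 0.000918). It was above background on 1 of the 2 allograft arrays, so the size and rank of this fall rest in part on a value below background. Lce1i of the same family (-5.17 ± 1.14, at least 35.8-fold) and the cornified-envelope gene Kprp (-4.5 ± 0.97, 22.6-fold) were also among the 10. Cyp1a1, the classical target of the aryl hydrocarbon receptor, went from -3.81 and -3.43 to -9.16 and -9.41, at least 11.2-fold lower (-5.66 ± 0.4, adjusted p = 7.59e-05). Both Cyp1a1 values in the allograft were below background. Anxa10, an annexin, fell 49.8-fold (-5.64 ± 0.17), Fgfbp1, a carrier that releases fibroblast growth factors from the matrix, at least 33.2-fold (-5.05 ± 0.09), and Cck, which encodes cholecystokinin, 26.5-fold (-4.73 ± 0.21). The others were Atp13a4, Igsf11 and Btn1a1, by at least 13-fold, 7.45-fold and 7.02-fold.

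Markers of host cells were counted next. The dish arrays held transcripts of fibroblasts: the intermediate filament gene Vim stood at 7.71 and 7.64 and Col1a1 at 3.63 and 3.79, while Ptprc, the pan-leukocyte antigen CD45, and the endothelial adhesion gene Pecam1 were not above background. Other markers of these cells were: 3 of 8 defining leukocyte and 4 of 7 defining endothelial markers were above background on both dish arrays. Fap, a marker of activated fibroblasts, was below background in the dish, and Thy1 (-1.42 and -1.49) and Pdgfra (-4.53 and -4.34) were measured but low. Of 17 fibroblast markers 12 rose and 3 fell in the allograft (median 3.2). Those that fell were the mesenchymal transcription factor genes Twist2 (-1.73) and Prrx1 (-1.18) and Vim (-0.55), whose call was lost under quantile normalization (-0.03) and without scaling (-0.17). The summed level of the list, with 1 the 75th percentile, was 417 and 384 in the dish and 714 and 730 in the allograft. In whole tumours, fewer cells of a type and less RNA per cell cannot be told apart, and RNA of host fibroblasts cannot be told from RNA of the injected cells.

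Macrophage markers rose as a group. Of 27 markers 25 rose and 1 fell (median 8.88), against 35.8% higher and 32.2% lower over all targets, whose median change was -0.02, and their summed level went from 9.19 and 8.6 in the dish to 197 and 218. Csf1r, the receptor for the macrophage growth factor CSF-1, stood at -5.89 and -5.76 in the dish and at 2.57 and 2.72 in the allograft, 355-fold higher. Mrc1, the mannose receptor, rose 288-fold, the scavenger receptor gene Msr1 at least 318-fold and the haemoglobin scavenger gene Cd163 at least 100-fold. The exceptions were Gpnmb, a glycoprotein of macrophages and pigment cells, which fell 4.35-fold, and the scavenger receptor gene Marco (-0.05, not called). Arg1, an arginase, went from -3.89 and -3.85 to 2.77 and 2.33. Of 14 markers shared by leukocytes 13 rose (median 6.11), Ptprc by at least 321-fold. Arhgdib, a regulator of small GTPases, fell (-0.35), but was 0.09 under quantile normalization and 0.04 without scaling, and its call was lost when any 1 WT array was left out (-0.38 to -0.31). The transcription factor gene Spi1, which encodes PU.1, rose at least 14.5-fold. An exact form of the PU.1 site (AGAGG followed directly by AAGTG, either strand, 250 bases of RefSeq promoter) was searched for. It was found in 0 of 18 promoters of the macrophage markers that rose, 0 of 9 of the leukocyte markers that rose and 0.385% of all promoters. A match this rare was hardly to be met in so few promoters, so these counts cannot tell whether PU.1 sites are present. With genes below background in the dish at their bound the macrophage median was 8.17 and the leukocyte median 5.88, and with normexp background correction they were 6.02 and 4.26.

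Markers of other immune cells rose to different extents. The medians depend on dish values below background: below, each is followed by the median with such genes at their bound and by that with normexp background correction. A marker was tested only where well above background on both arrays of some group. That left 9 of 11 dendritic, 12 of 14 neutrophil, 11 of 14 T cell and 7 of 12 B cell markers on the array. Of these 6, 9, 5 and 3 were above background on neither dish array, where a rise could show but hardly a fall. The same held for 5 of 14 natural killer and 5 of 8 mast cell markers tested. Dendritic cell markers rose in 8 of 9 (median 4.29, then 2.18 and 0.77), led by Clec10a (at least 143-fold) and Itgax, the integrin CD11c (at least 53.5-fold). Neutrophil markers rose in 8 of 12 (median 2.64, then 2.48 and 0.93), among them S100a9 (at least 143-fold) and the protease gene Mmp9 (at least 132-fold), whereas the granule genes Lcn2 and Camp were not above background on any WT array, though Lcn2 was called lower with the replicate block (adjusted p = 0.0341). Of 14 markers of natural killer and cytotoxic cells 10 rose and 1 fell (median 2.63, then 1.94 and 1.07). All 7 defining ones rose, 5 of them above background on neither dish array. Over probes above background on all arrays 2 of 5 markers rose and 1 fell (median 0.03). The list's summed level was 20.3 and 17.7 in the dish and 16.8 and 15.3 in the allograft. Prf1, which encodes perforin, went from -8.54 and -9 to -0.3 and -0.97, at least 62.8-fold, and Gzma, a granzyme, rose at least 39.5-fold. The marker that fell, the chemokine gene Ccl5, stood at 4.32 and 4.1 in the dish and 3.72 and 3.51 in the allograft. Its call was lost without WT dish replicate 1 (-0.49), without WT allograft replicate 2 (-0.5), under quantile normalization (-0.1) and without scaling (-0.21). Of 11 T cell markers 6 rose and none fell (median 0.9, then 0.38 and -0.07), and the summed level was 1.06 and 1.11 in the dish and 28.6 and 30.8 in the allograft. Thy1, also counted among the fibroblast markers, had the highest change of the list (6.3) and stood at a log2 level of 4.79 and 4.9 in the allograft. Cd3e, a chain of the T cell receptor complex, stood at -4.19 and -3.57 in the dish and -4.93 and -4.17 in the allograft (-0.67). It was not called, but was called lower when the replicate number was a block (adjusted p = 0.00158), with median centring and under quantile normalization. Of the 6 defining T cell markers Cd3d (1.74) and Cd8a (2) rose, though both were below 0 with normexp background correction (-0.18 and -0.07). Cd4 (-0.2), Cd5 (-0.13) and Cd3g (0.8) were not called, and Cd3g was called higher over the 4 WT arrays alone and without either Keap1 null allograft array. The median of all 11 was also below 0 when centred on the median (-0.12) and with quantile normalization (-0.1). B cell markers rose in 4 of 7 (median 1.03, then 0.52 and 0.12), in 2 of 7 with normexp, and 3 rose and 2 fell with median centring (median 0), with Cd79b at least 9.58-fold higher and Cd79a not called (-0.16). Mast cell markers rose in 6 of 8 (median 2.79, then 2.64 and 1.26), Cma1, a chymase, by 19-fold.

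Markers of vessel cells rose as well. Of 21 endothelial markers 20 rose and none fell (median 4.18), all 7 defining ones among them, and the summed level went from 25.1 and 25.3 to 71 and 65.6. Pecam1 stood at -8.23 and -8.57 in the dish and at -1.05 and -1.55 in the allograft, at least 39.6-fold higher. Cdh5, the cadherin of endothelial junctions, rose 47.3-fold, Kdr, the main receptor for VEGF-A, 11.2-fold, and the endothelial sialomucin gene Emcn at least 399-fold. Of 10 pericyte markers 8 rose (median 5.04): the potassium channel gene Kcnj8 by at least 320-fold and Rgs5 by 47.6-fold. Of 4 lymphatic markers 2 rose, Lyve1 by at least 77.8-fold, and Pdpn fell 1.83-fold. With the replicate block 1 was called higher. Their median of 0.42 turned to -0.16, -0.6 and -0.46 with normexp, centring on the median and quantile normalization. Red cell and platelet genes rose in 6 of 7 (median 4.97), with Hba-a1, an alpha globin, 60.7-fold higher. Of the endothelial, pericyte and red cell and platelet lists 7, 5 and 3 members were above background on neither dish array. With those at their bound the medians were 3.87, 4.82 and 3.9, and with normexp 3.01, 3.29 and 1.61. Nerve markers rose in 6 of 8 (median 0.85, but -0.17 when centred on the median).

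All 3 tested genes of the Y chromosome rose in the allograft. Ddx3y, an RNA helicase gene, stood at -8.64 and -8.97 in the dish, not above background, and at -1.1 and -0.95 in the allograft, at least 48.1-fold higher (7.78 ± 0.15). Eif2s3y, a translation factor gene, went from -8.48 and -8.95 to -0.97 and -0.48, at least 59.1-fold higher (7.99 ± 0.21). Both genes were near the floor of both dish arrays and measured on both allograft arrays. Kdm5d, the third, changed least (2.36) and was above background on 1 of 2 dish arrays.

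Fat and muscle markers differed between the 2 allograft arrays. Adipoq, the fat hormone adiponectin, stood at -8.73 and -8.18 in the dish and at -1.83 on allograft array 1 and -5.78 on allograft array 2. Cfd, which encodes adipsin, stood at 2.21 and -3.4, and Plin1, the coat protein of lipid droplets, at -3.06 and -7.37, on allograft arrays 1 and 2. Array 1 was the higher in each case, by up to 5.61 for Cfd. The call of Adipoq was lost without WT dish replicate 1 (4.37) and with normexp (1.42), and of the alternatives run Plin1 was called only without WT allograft replicate 2 (4.06). Of 13 fat markers 7 rose and 3 fell (Pparg, Scd1 and Acaca, genes of lipid synthesis and its control, by 1.12 to 1.77 on the log2 scale), with a median change of 3.54 on slide 1 and 1.38 on slide 2. Without allograft array 2 the median was 3.79 and without allograft array 1 it was 1.42. The summed fat marker level was 7.76 and 7.61 in the dish and 22.5 and 9.11 in the allograft. Muscle markers showed the same split: Myh1, a fast myosin, stood at 0.49 and -2.67 and Acta1, skeletal actin, at 0.09 and -1.4. Of 14 muscle markers 8 rose and 1, the calcium pump gene Atp2a1, fell (-0.78, but 1.17 as the mean over its probes), with a median of 2.51. With normexp 5 rose (median 0.71) and with quantile normalization 5 rose (median 1.57). In all 10 rose without allograft array 2 and 6 without allograft array 1. The list's sum was 7.77 and 3.16 against 2.74 and 2.31 in the dish. Of 11 keratinocyte markers Trp63 rose, at least 1.12-fold, and Dsp, Sprr1a, Sfn and Ivl fell (median -0.44). When any 1 WT array was left out the calls of Trp63 (1.97 to 2.38) and Dsp (-2.59 to -2.16) were lost. The basal keratins Krt5 (-0.37) and Krt14 (-0.46) were not called.

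**Figure D2:**
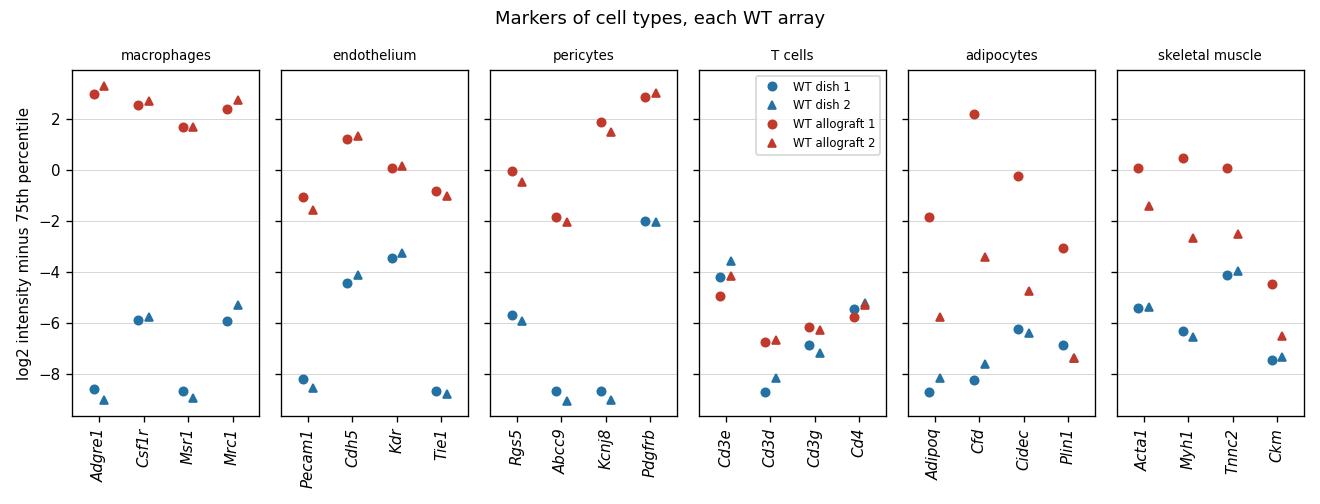
Log2 level (signal minus the array's 75th percentile) of 4 markers for each of 6 cell types, with 1 point per WT array (blue dish, red allograft, circle array 1, triangle array 2). Macrophage, endothelial and pericyte markers were high on both allograft arrays, the T cell marker Cd3e was not higher there (-0.67), and fat and muscle markers were higher on allograft array 1 (Cfd 2.21) than on array 2 (-3.4).

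Genes induced by interferons rose nearly as a whole. Interferons made by infected or activated immune cells act on most cell types and switch on antiviral genes. Of 36 genes 34 rose and 1 fell (median 2.97), against 35.8% and 32.2% of all targets. All 5 transcription factors, all 5 sensors and all 7 interferon gamma GTPases rose. Iigp1, an immunity GTPase, stood at -8.65 and -8.86 in the dish and 1.17 and 2.19 in the allograft, at least 313-fold higher (10.44 ± 0.33). Oas2, which makes the signal that activates RNase L, rose at least 182-fold, Ifi44 at least 211-fold and the nucleic acid sensor gene Zbp1 276-fold. Irf7, the transcription factor that amplifies the type I response, went from -5.11 and -5.15 to 0.89 and 1.1. The 1 gene that fell was Oasl1 (-0.5 ± 0.15, adjusted p = 0.0233), a call lost under quantile normalization (-0.29), without scaling (-0.12), without WT dish replicate 1 (-0.42) and without WT allograft replicate 1 (-0.41), and Ifit2, at -0.76 and -0.77 against -0.82 and -0.53, was not called. Macrophage and other leukocyte markers moved with these genes (sums 14.5 and 14.1 against 46.4 and 49.9 for general leukocyte markers), and their part in the result was not tested.

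The promoters of these genes were searched for the core of the interferon-stimulated response element (GAAA, any 2 bases, GAAA) on both strands of the 250 bases before each start in the RefSeq table of GRCm38.p6. It was found in 13 of the 25 interferon genes that rose and have a promoter there (52%), and in 936 of all 27025 genes with a promoter there (3.46%). The 4 below are shown because they hold the match and each rose, as a choice made after the values were seen; capitals mark the match. Gbp2 lies at chr3:142620413-142620662 (+), Oas3 at chr5:120777660-120777909 (-), Oas1a at chr5:120907526-120907775 (-) and Igtp at chr11:58199306-58199555 (+). The match begins at -59 in Gbp2 (on the opposite strand), -75 in Oas3 and -34 in Igtp, and Oas1a holds 2 overlapping matches from -20.
Gbp2: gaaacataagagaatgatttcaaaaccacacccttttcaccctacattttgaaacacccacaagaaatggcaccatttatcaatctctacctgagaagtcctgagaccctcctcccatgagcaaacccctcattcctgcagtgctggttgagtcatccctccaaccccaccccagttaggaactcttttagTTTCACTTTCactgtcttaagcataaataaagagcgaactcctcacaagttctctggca
Oas3: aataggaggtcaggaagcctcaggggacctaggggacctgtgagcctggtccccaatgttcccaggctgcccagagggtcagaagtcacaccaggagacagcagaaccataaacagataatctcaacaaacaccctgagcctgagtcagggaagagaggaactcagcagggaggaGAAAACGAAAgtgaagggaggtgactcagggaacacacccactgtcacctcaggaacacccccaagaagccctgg
Oas1a: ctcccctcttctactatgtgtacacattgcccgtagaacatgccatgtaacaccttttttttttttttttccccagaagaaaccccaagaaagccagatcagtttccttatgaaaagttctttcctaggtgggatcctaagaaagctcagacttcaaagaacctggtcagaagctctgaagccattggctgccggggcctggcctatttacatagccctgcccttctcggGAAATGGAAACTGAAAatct
Igtp: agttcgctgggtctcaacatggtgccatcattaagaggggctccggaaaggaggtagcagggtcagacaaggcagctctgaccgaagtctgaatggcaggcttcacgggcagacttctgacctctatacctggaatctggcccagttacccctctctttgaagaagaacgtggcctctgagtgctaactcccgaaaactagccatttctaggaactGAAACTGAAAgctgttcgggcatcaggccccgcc

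Each of these 4 genes rose. Gbp2, a guanylate-binding protein that attacks the vacuoles of intracellular pathogens, went from -4.94 and -4.62 in the dish to 0.62 and 1.1 in the allograft (50-fold, adjusted p = 5.34e-06). Igtp, an immunity GTPase, went from -1.93 and -1.88 to 2.67 and 3.12 (27.8-fold). Oas1a went from -3.34 and -3.37 to 1.38 and 1.76 (30.5-fold), and Oas3, not above background in the dish, rose at least 25-fold. The dish and allograft arrays did not overlap for any of the 4, as for 83.3% of all targets.

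Genes of antigen presentation rose too. MHC class I molecules show peptides from inside the cell. Of 17 genes of this route 16 rose and none fell (median 1.55). Psmb8, a subunit of the immunoproteasome, stood at -4.71 and -4.77 in the dish and at 2.76 and 3 in the allograft, 196-fold higher (7.62 ± 0.13), and its partner Psmb9 rose 72.4-fold. The peptide transporter genes Tap1 and Tap2 rose 12-fold and 9.49-fold and the loading factor gene Tapbp 3.76-fold. H2-M3, a non-classical heavy chain, rose 5.68-fold. When arrays were centred on the median 10 of the 17 were called higher and 1 lower. The interferon-stimulated response element core was found in 2 of 15 promoters of the class I genes that rose (13.3%). All 9 class II genes rose (median 6.32): H2-Ab1, a chain of I-A, went from -7.44 and -6.96 to 2.5 and 2.58, and Ciita, the master regulator of the class II genes, rose at least 18.1-fold. Of these 9 genes 6 were above background on neither dish array, where a rise could show but hardly a fall. With those at their bound the median was 4.18, and with normexp background correction 8 rose (median 3.48). Class II molecules belong mainly to antigen-presenting cells, whose macrophage and dendritic markers rose too (dendritic sums 0.71 and 0.644 against 3.66 and 3.11), and their part in the result was not tested.

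Complement and chemokine genes followed the same direction. Complement is a chain of serum proteins that tag cells for uptake or lysis. Of 21 complement genes 20 rose and none fell (median 6.59). C1qc stood at -7.5 and -9 in the dish and at 4.1 and 4.23 in the allograft, at least 1760-fold higher. Cfb, a protease of the alternative pathway, rose at least 610-fold and the C1 inhibitor gene Serping1 at least 177-fold. Of 33 chemokine and cytokine genes 28 rose and 2 fell (median 4.04), of which 14 were not above background on either dish array. With those at their bound the median was 3.03, and with normexp it was 1.41; for complement the values were 5.74 and 3.99. Ccl12, an attractant of monocytes, rose at least 972-fold, the chemokine genes Ccl6 at least 1690-fold and Ccl8 551-fold, and Il1b, which encodes interleukin 1 beta, at least 188-fold. Cxcl14, made by fibroblasts and epithelia, went from -7.29 and -7.83 to 3.91 and 3.29, at least 1190-fold higher. Those that fell were Ccl5 (-0.6) and Csf2, which encodes GM-CSF (-0.74, not called without scaling at -0.36). Csf1, the macrophage growth factor, did not pass the test: it stood at 2.92 and 2.87 in the dish and 2.9 and 2.86 in the allograft.

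Genes of the extracellular matrix rose in the allograft. All 7 fibrillar collagens and all 8 other collagens rose, and of 26 genes with their processing enzymes 22 rose and 1 fell (median 2.01). Col3a1, the partner of type I collagen in loose tissue and wounds, stood at 0.09 and 0.13 in the dish and at 6.81 and 6.9 in the allograft, 107-fold higher (6.74 ± 0.11, adjusted p = 9.06e-07). Col1a2 went from 3.89 and 3.63 to 7.7 and 7.71 (15.4-fold). Col14a1 and Col15a1, which link fibrils and basement membranes to their surroundings, rose at least 217-fold and, with Col15a1 above background on 1 of 2 dish arrays, 149-fold, and the procollagen protease gene Adamts2 120-fold. All of these genes, named for their large changes, had both allograft arrays above both dish arrays. The 2 groups did not overlap for 83.3% of all targets. P4ha2, a prolyl hydroxylase, was the 1 gene that fell (-0.65), a call lost under quantile normalization (-0.22) and without scaling (-0.27). Centred on the median, 14 of the 26 were called higher and 5 lower.

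Among 33 other matrix genes 27 rose and 1 fell (median 2.74). Postn, which encodes periostin, a matricellular protein of wounds and tumour stroma, stood at -5.44 and -5.5 in the dish and 5.14 and 5.58 in the allograft, 1820-fold higher (10.83 ± 0.28). All 8 small leucine-rich proteoglycans, which space collagen fibrils, rose, Lum at least 1650-fold, Ogn at least 231-fold and Aspn at least 80.8-fold. Of the elastic fibre genes Mfap4, above background on 1 of 2 dish arrays, rose 177-fold and Mfap5 at least 156-fold. The fall was in Thbs1, thrombospondin 1 (-0.6 ± 0.1), not called without scaling (-0.22). Of 26 matrix proteases and inhibitors 18 rose and 3 fell (median 2.27), among them Mmp3 (48.4-fold), which went from -1.35 and -1.32 to 4.09 and 4.43, Mmp13 (102-fold) and Mmp12, the elastase of macrophages (at least 56.3-fold). Adamts1 and the urokinase receptor gene Plaur fell 1.92-fold each. Without scaling Adamts1 was not called (-0.56). Markers of fibroblasts, pericytes and macrophages rose alongside (fibroblast list 12 of 17, pericyte list 8 of 10, sums 1.46 and 1.37 against 21.3 and 20.7), and their part in the matrix result was not tested.

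Growth factor genes were mixed outside the insulin-like growth factor (IGF) system. Of 35 genes 19 rose and 12 fell, against 35.8% and 32.2% of all targets. The median of 0.82 was -0.2 when arrays were centred on the median. Of 7 genes of the IGF system 6 rose and none fell (median 4.88). Igf2, a fetal growth factor, stood at -8.47 and -7.69 in the dish, not above background, and at 0 and -0.01 in the allograft, at least 97.3-fold higher. Igfbp5 and Igfbp7, which bind IGFs, rose at least 163-fold and 119-fold, and Igf1 rose 29.5-fold. Ltbp2, a binding protein of the TGF-beta family, rose 80.5-fold and Pdgfb, the ligand that recruits pericytes, at least 12.7-fold. Vegfb fell 2.89-fold and Fgf10 3.69-fold. Vegfa, the main attractant of vessels, did not pass the test, at 1.31 and 1.37 against 1.31 and 0.96, but was called lower as the mean over its probes (-0.66).

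**Figure D3:**
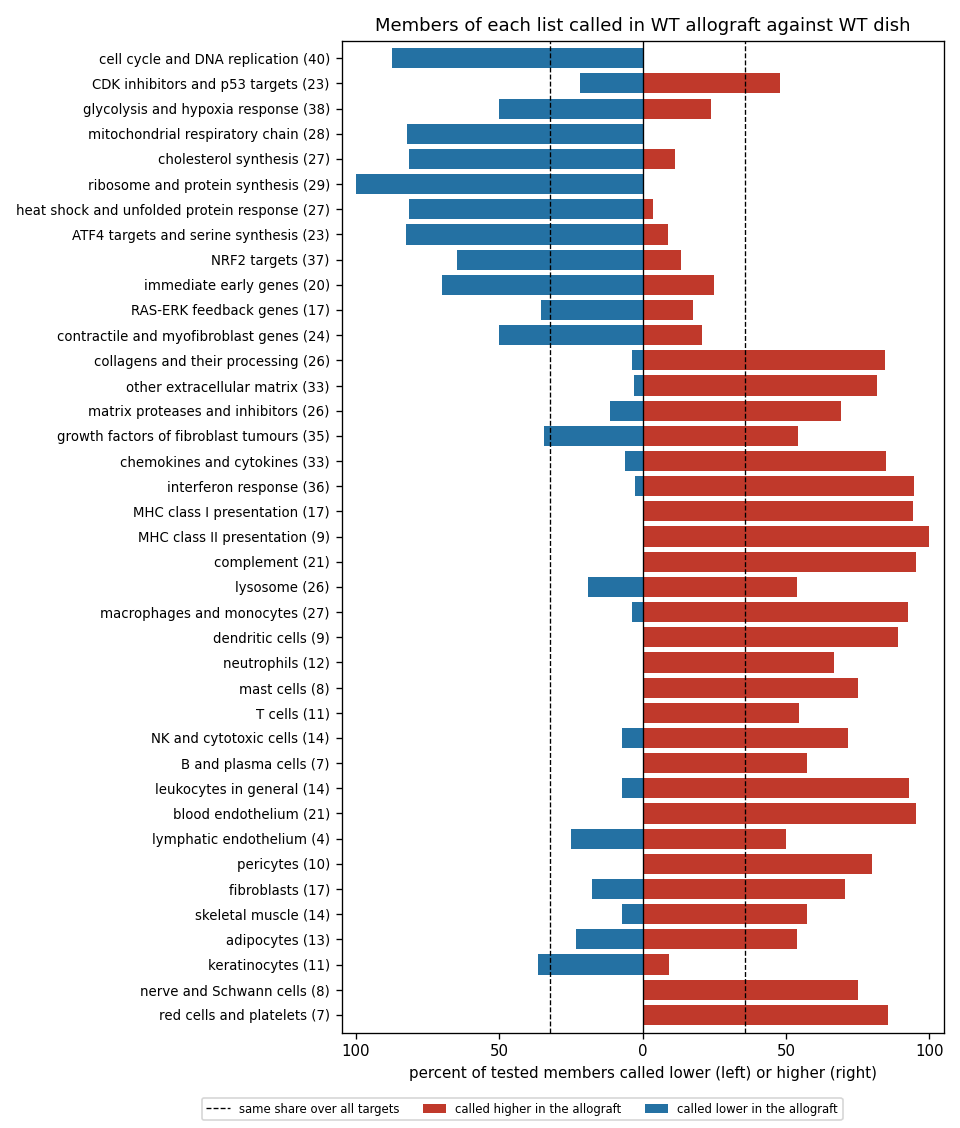
Percent of the tested members of each gene list (number tested in brackets) called higher (red, right) or lower (blue, left) in the WT allograft, with dashed lines at the shares over all targets, 35.8% and 32.2%. Immune, vessel and matrix lists lie to the right; ribosome (29 of 29), cell cycle (35 of 40), ATF4 (19 of 23) and cholesterol genes (22 of 27) lie to the left.

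Genes of amino acid supply fell. ATF4 is the transcription factor of the integrated stress response, switched on when amino acids run short, and it induces transporters and the enzymes that make serine and asparagine. Of 23 genes 19 fell and 2 rose (median -1.45), with 13 of the 14 amino acid supply genes and 6 of the 9 stress genes falling. Chac1, which degrades glutathione, stood at 3.89 and 3.81 in the dish and at 0.07 and -0.53 in the allograft, 16.9-fold lower (-4.08 ± 0.19, adjusted p = 1.7e-05). Cth, the enzyme that makes cysteine from cystathionine, fell 8.38-fold, the pseudokinase gene Trib3 6.35-fold, and Psat1 and Psph of serine synthesis 5.61-fold and 4.33-fold. Asns, asparagine synthetase, went from 6.46 and 6.17 to 4.06 and 3.72 (5.38-fold). Every one of these genes, named for their large changes, was lower on both allograft arrays than on either dish array. The 2 groups did not overlap for 83.3% of all targets. The 2 that rose, the transporter gene Slc7a3 (0.44) and the stress gene Ddit4 (0.43), were lower with median centring (-0.58 and -0.59), and Slc7a3 was not called without WT dish replicate 1 (0.31) or WT allograft replicate 2 (0.42). Cebpb, a partner of ATF4, did not pass the test (-0.16). Between 17 and 23 of the 23 were called lower under each of the scalings tried, and the median lay between -2.47 and -1.06.

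Promoters of these genes were searched on both strands for TGATGNAA, the core of the C/EBP-ATF response element, a motif added after the values were seen. It was found in 4 of the 17 genes that fell and have a promoter (23.5%) and in 1056 of all 27025 genes with a promoter (3.91%). The 3 below, which hold the match in capitals and belong to genes that fell 16.9-fold, 5.38-fold and 3.88-fold, are given from RefSeq, GRCm38.p6: Chac1 at chr2:119350992-119351241 (+), Asns at chr6:7693210-7693459 (-) and Atf3 at chr1:191183334-191183583 (-). The match begins at -193 in Chac1 and at -110 in Atf3, both on the opposite strand, and at -23 in Asns.
Chac1: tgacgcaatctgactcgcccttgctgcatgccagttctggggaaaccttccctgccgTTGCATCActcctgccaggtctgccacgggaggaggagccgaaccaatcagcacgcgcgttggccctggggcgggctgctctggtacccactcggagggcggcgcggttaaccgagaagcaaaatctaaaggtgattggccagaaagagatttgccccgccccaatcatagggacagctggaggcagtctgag
Asns: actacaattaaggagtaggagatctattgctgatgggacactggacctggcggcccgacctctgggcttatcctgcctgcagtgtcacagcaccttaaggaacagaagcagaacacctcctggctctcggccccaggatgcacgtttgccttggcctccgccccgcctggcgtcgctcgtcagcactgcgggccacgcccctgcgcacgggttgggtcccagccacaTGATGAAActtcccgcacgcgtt
Atf3: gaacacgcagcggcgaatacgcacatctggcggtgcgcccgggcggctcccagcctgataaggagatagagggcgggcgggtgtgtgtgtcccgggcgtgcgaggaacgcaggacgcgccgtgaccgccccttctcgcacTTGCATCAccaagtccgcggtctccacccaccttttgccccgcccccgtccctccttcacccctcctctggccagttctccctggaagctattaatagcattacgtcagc

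Cholesterol genes fell on the side of synthesis and rose on the side of export. Cells short of sterol activate SREBP2, which induces the synthesis enzymes and the LDL receptor. Of 20 synthesis enzymes 18 fell and none rose, and all 4 regulators and uptake genes fell, while all 3 efflux genes rose (median of all 27 genes, -1.2). Lss, which makes lanosterol, stood at 2.64 and 2.54 in the dish and at 0.49 and 0.25 in the allograft, 4.67-fold lower. Sc5d, a late step of synthesis, fell 3.94-fold. Hsd17b7 (-0.5) and Acat2 (-0.47) were the enzymes not called, and both were called lower with the replicate block. Apoe, the lipoprotein gene, went from -2.46 and -2.56 to 6.34 and 6.22 (444-fold), and the sterol pumps Abca1 and Abcg1 rose 9.64-fold and 4.49-fold. Apoe and Abca1 are also high in macrophages, whose markers rose, and their part in the result was not tested. TCACNCCAC, a sterol regulatory element core added after the values were seen, was found in 1 of 15 promoters of the genes that fell (6.67%, against 1.22% of all), and CCAAT in 15 of 15 (100%, against 37.5% of all).

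Glycolysis genes did not rise together. The hypoxia-inducible factors (HIFs) switch on glucose uptake, glycolysis and vessel growth when oxygen is low. Of 20 genes of glucose uptake and glycolysis 5 rose and 14 fell, and of 18 other HIF targets 4 rose and 5 fell (median of all 38, -0.51). Over all targets 35.8% were called higher and 32.2% lower. Eno1, enolase, stood at 3.24 on both dish arrays and at 1.79 and 1.69 in the allograft, 2.82-fold lower, whereas the glucose transporter gene Slc2a3 rose 4.03-fold and Aldoc 3.17-fold. Adm, which encodes adrenomedullin, and Stc1 rose 5.67-fold and 2.95-fold, and Stc2 fell 7.05-fold. Hilpda (-0.3) and Bnip3l (-0.32), both HIF targets, were not called, but were when either Keap1 null allograft array was left out. Under the other scalings 12 to 30 of the 38 were called lower. ACGTG, the hypoxia response element core, was found in 13 of 25 promoters of called genes (52%, against 18.5% of all). Both directions were pooled there, and of the called genes 9 rose and 19 fell.

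Cell cycle genes fell modestly and together. Of 40 genes 35 fell and none rose (median -0.76), among them all 15 replication genes and 10 of 11 cyclins and mitotic kinases. Mybl2, a transcription factor of dividing cells, stood at 2.99 and 2.77 in the dish and at 1.17 and 1.02 in the allograft, 3.44-fold lower (-1.78 ± 0.11). Ccnb1, cyclin B1, fell 2.85-fold, Aurka, a spindle kinase, 2.66-fold, and Birc5, which encodes survivin, 2.29-fold. Mki67, the antigen Ki-67, did not pass the test, at 4.5 and 4.43 against 4.66 and 4.62, nor did Ccnb2 (0.00). Both were called lower with median centring (-0.85 and -1.03) and higher under quantile normalization (0.69 and 0.52). Without scaling 13 of the 40 were called lower and 1 higher, so the count depends on the scale, and the median stayed below 0 in all scalings tried (-1.79 to -0.38). CCAAT was found in 20 of 29 promoters of the genes that fell (69%, against 37.5% of all) and TTTGAA, the CHR element, in 6 of 29 (20.7%, against 18.3% of all).

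Inhibitors of the cycle and targets of p53 were split. Of 23 genes 11 rose and 5 fell, against 35.8% and 32.2% of all targets. Among the 18 targets of p53 10 rose and 4 fell, and among the 5 inhibitors 1 rose and 1 fell. Their median of 0.29 was -0.74 when arrays were centred on the median. Fas, the death receptor, stood at -4.08 and -4.03 in the dish and at 0.08 and 0.21 in the allograft, 18.4-fold higher (4.2 ± 0.09). Trp53inp1 rose 5.19-fold, Eda2r 2.69-fold and Sesn1 2.53-fold, all targets of p53. Cdkn2a, which encodes the inhibitors p16 and ARF, went the other way, from 2.64 and 2.57 to 0.88 and 1.08 (3.09-fold lower).

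Genes of protein synthesis, respiration and protein folding fell by small amounts, and the size of these falls depended on the scale. All 29 ribosome genes fell (median -0.83), the 10 of ribosome biogenesis with a median of -1.27. Nolc1, a nucleolar protein, went from 5.13 and 4.86 to 3.52 and 2.9 (3.44-fold lower), and Npm1, nucleophosmin, fell 2.54-fold. Of the 29, 13 were called lower under quantile normalization and 10 without scaling. Of 28 respiratory chain genes 23 fell and none rose (median -0.51, but 0.03 under quantile normalization). Cyc1, cytochrome c1, fell 2.1-fold. Of these 28 genes 6 were called lower under quantile normalization, 1 without scaling, and 15 without WT dish replicate 1 or without WT allograft replicate 1. Of 27 heat shock and unfolded protein genes 22 fell and Xbp1, a regulator of the unfolded protein response, rose (0.5, but -0.52 with median centring). The median was -0.72, with 11 lower under quantile normalization and 8 without scaling. Hspb1, a small heat shock protein, went from 4 and 3.86 to 1.41 and 1.45 (5.66-fold lower), Hsph1 fell 3.97-fold and the mitochondrial chaperone gene Hspd1 3.03-fold.

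**Figure D4:**
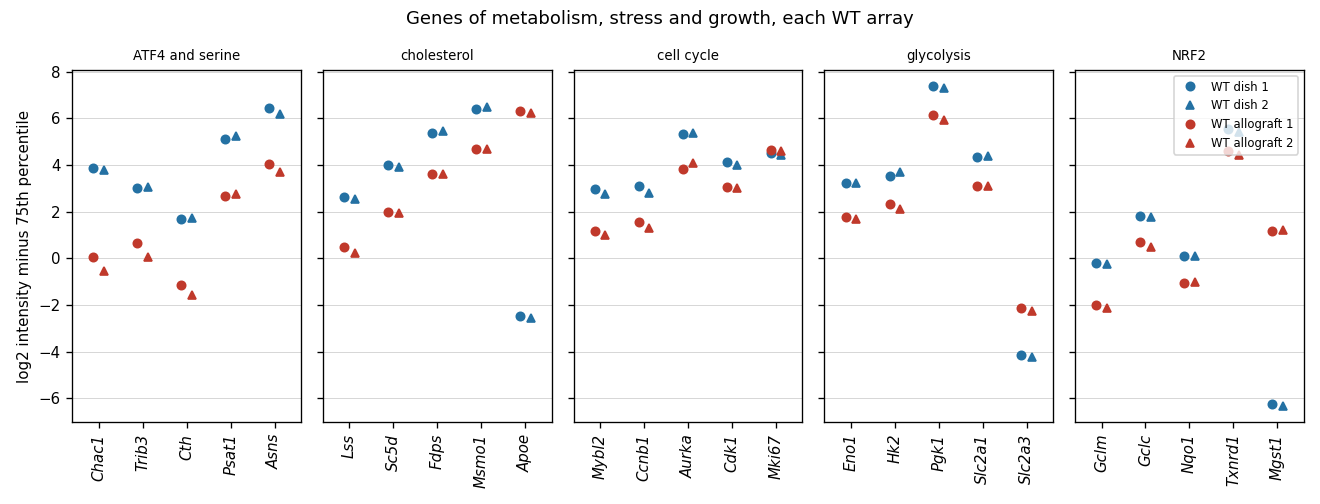
Log2 level of 5 genes from each of 5 lists on the 4 WT arrays (blue dish, red allograft, circle array 1, triangle array 2). The ATF4 and cholesterol synthesis genes lie lower on both allograft arrays, Apoe and Mgst1 lie higher, and the Ki-67 gene Mki67 differs little (4.5 and 4.43 against 4.66 and 4.62).

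Targets of NRF2 mostly fell while Nfe2l2 itself did not pass the test. Of 37 genes, Keap1 and Nfe2l2 included, 24 fell and 5 rose (median -0.65). Gclm, the modifier subunit of the enzyme that starts glutathione synthesis, stood at -0.19 and -0.25 in the dish and at -2 and -2.12 in the allograft, 3.58-fold lower. The glutathione transferase genes Gsta1 and Gsta2 fell 3.56-fold and at least 1.51-fold, Gsta2 being above background on 1 of 2 dish arrays. In the other direction, the microsomal transferase gene Mgst1 went from -6.23 and -6.33 to 1.17 and 1.21, 177-fold higher (7.47 ± 0.12), Gsta3 rose at least 3.73-fold and Ephx1, an epoxide hydrolase, 3.92-fold. With normexp background correction the calls of Gsta2 (-0.56) and Gsta3 (0.74) were lost. Without scaling 11 of the 37 were called lower and 5 higher.

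Genes that answer growth factor signals within minutes were also split. Of 20 immediate early genes 14 fell and 5 rose (median -0.71, with 7 lower without scaling). Fos stood at -4.37 and -4.04 in the dish and at -0.72 and -0.44 in the allograft, 12.4-fold higher, and Egr2 rose 19.1-fold. Fosl1 (2.78-fold), Fosb (2.65-fold), Ier3 (2.83-fold) and Atf3 (3.88-fold), all genes of transcription factors except Ier3, fell. Of 17 feedback genes of the RAS-ERK pathway 6 fell, near the share of all targets (32.2%), and 3 rose, against 35.8%. Their median of -0.28 was 0.11 without scaling, with 13 called lower when centred on the median. Dusp4, a phosphatase that switches off ERK, went from 1.56 and 1.41 to -1.07 and -1.47 (6.74-fold lower), Phlda1 fell 2.93-fold and Etv5 2.24-fold. The ERK inhibitor gene Spry1 rose 11.1-fold, the transcription factor gene Etv1 3.96-fold and the ERK phosphatase gene Dusp6 1.57-fold (0.65, but -0.37 with median centring).

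Contractile and lysosomal genes showed no common direction. Of 24 contractile and myofibroblast genes 5 rose and 12 fell, against 35.8% and 32.2% of all targets. The median of -0.42 was 0.04 under quantile normalization. Myl9, a myosin light chain of smooth muscle, stood at -3.03 and -2.93 in the dish and at 2.68 and 2.84 in the allograft, 53.5-fold higher, and Myh11, smooth muscle myosin, rose 6.04-fold. Ccn1 and Ajuba, of the YAP pathway, fell 4.48-fold and 3.83-fold. Centring on the median gave 19 lower, quantile normalization 6 and no scaling 3. Of 26 lysosomal genes 14 rose and 5 fell, with a median of 0.31 that was -0.71 when centred on the median. Apart from Ctss, Ctsk, a collagen-degrading cathepsin, rose 295-fold and Ctsc 93.5-fold, while the membrane protein gene Lamp1 and the proton pump gene Atp6v1a fell 1.71-fold and 1.78-fold, calls that were lost without scaling (-0.38 and -0.45).

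The Keap1 null line made the same passage from dish to tumour, from fewer injected cells. In it 14875 targets (64.9%) were called, 10908 in the same direction as in WT, which is 69.9% of the WT calls and 73.3% of the Keap1 null calls, and 1225 were opposite. Here the 2 lines share no array. The difference between the changes, tested in the same fit, was called for 7530 targets (32.9%), with the WT change higher in 3900 (17%) and lower in 3630 (15.8%). Of the 15600 WT calls 6066 also had a called difference and 9534 did not.

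Interferon and class I genes rose more in WT. For 30 of 36 interferon genes the WT change was higher and for none lower (median difference 1.81). Gbp2 differed by 4.33 (limma adjusted p = 0.000246) and Iigp1 by 3.27. For 16 of 17 class I genes the WT change was higher and for none lower (median 1.39). Tapbp had a change of 1.91 in WT and -0.17 in the Keap1 null line. Markers of macrophages (19 of 27 higher, 2 lower) and natural killer cells (10 of 14 higher, none lower) moved the same way. Cx3cr1, a receptor of monocytes and macrophages, rose at least 91.5-fold in WT and was not above background on any Keap1 null array. Mast cell markers moved the other way, lower in WT for all 8 (median -3.27). The endothelial markers differed in few cases, with 3 of 21 higher and 1 lower. The part of these cells in the difference was not tested.

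Genes of amino acid supply, NRF2 and glycolysis differed the other way. For 20 of 23 ATF4 genes the WT change was lower and for none higher (median -1.88). Chac1 changed by -4.08 in WT and 0.31 in the Keap1 null line (difference -4.39, adjusted p = 0.000237), and Asns by -2.43 and 0.07. For 24 of 37 NRF2 targets the WT change was lower and for 5 higher (median -0.91). Gclm changed by -1.84 and 0.37, and Mgst1 by 7.47 and 1.65. Of 38 glycolysis and hypoxia genes 25 were lower in WT and 4 higher (median -0.85), Vegfa among them with changes of -0.2 and 1.7. Among p53 targets and cycle inhibitors 12 of 23 were higher in WT and 2 lower. Fas changed by 4.2 in WT and -0.1 in the other line.

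**Figure D5:**
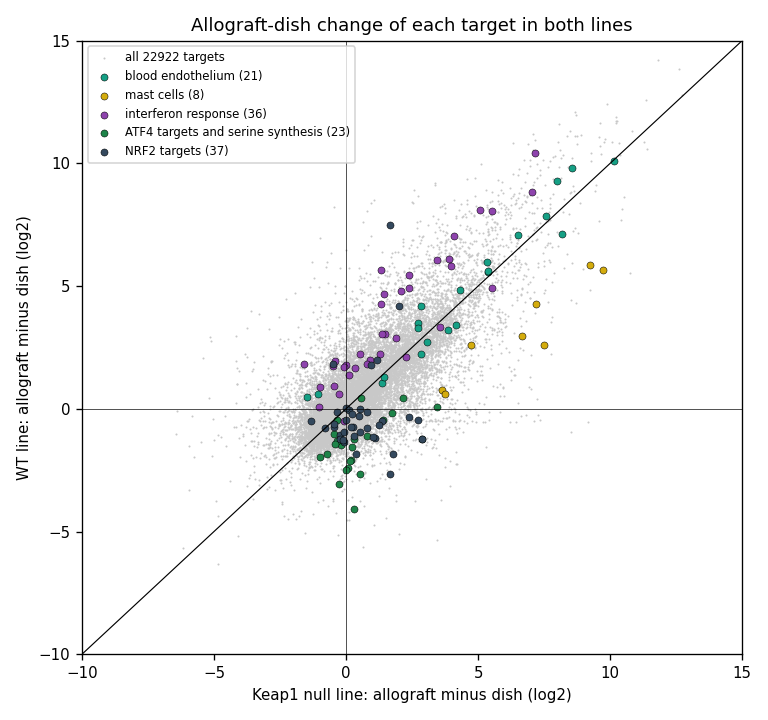
Change from dish to allograft (log2) of each of the 22922 targets in the Keap1 null line (horizontal) and the WT line (vertical), with 5 gene lists coloured and a line at equal changes. Interferon genes lie above the line (median difference 1.81), and ATF4 genes (-1.88), NRF2 targets (-0.91) and mast cell markers (-3.27) below it.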

How the data were processed

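Signals of 4 WT and 4 Keap1 null arrays were analysed. The deposited values are intensities of Agilent Feature Extraction 10.7.3.1, background-subtracted and not scaled between arrays, per the file headers; the headers name the build mm9. The deposited value table differs from them by at most 0.496%. With R 4.3.3 and limma 3.58.1, processed signals were put on a log2 scale and set against the 75th percentile of non-control spots on the same array, outlier spots were left out (9 targets lack a WT value), and repeated spots were averaged. No spot was saturated. Of 41174 probes 26690 were matched to 18217 symbols through accessions of the RefSeq table. A probe entered the fit if some group had it well above background on each of its arrays, which 30358 did, and each of the 22922 targets was represented by its brightest probe. Of 5725 targets with several probes 292 had probes called in opposite directions. The limma fit of 4 group means had 4 residual and 1.83 prior degrees of freedom. It was tested on simulated data.

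The members and lists were chosen with earlier results of these data known. Named genes were Keap1, Nfe2l2, the 10 largest rises and falls, the 6 largest changes, exceptions and bright uncalled members of each list, the first 4 defining markers of each cell type and the 8 largest differences between the lines in each direction. Acaca, Arg1, Camp, Cd163, Col1a1, Dusp6, Lcn2, Msr1, Plaur, Spi1 and the promoter genes Gbp2, Oas3, Oas1a and Igtp are outside this rule and were chosen after their values were seen. The replicate number is also the slide, each with all 4 groups. Deviations of same-numbered arrays from their group means correlated in all 6 pairs of groups, at 0.43 to 0.71, so the numbers pair the arrays. The main fit and its p-values leave this pairing out, and the replicate block among the alternatives takes it in. The number of arrays limits the precision. Promoters, 250 bases, came from RefSeq, GRCm38.p6, for 586 of 783 listed genes. Counts and shares of promoters with a motif are counts of genes, each a match if any of its starts held the motif. The lists group genes by known function or regulator, so a motif share describes the genes listed and not their change. Alternatives were normexp background correction, median centring, quantile normalization, no scaling, other filters on dim probes, the 4 WT arrays alone, the replicate block, the mean over probes and leaving out each array. Some list members are not reported here by name.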

Additional observations from a re-analysis of the deposited data

Results flagged for a closer look

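The change from dish to allograft differed between the WT and the Keap1 null line, by the limma interaction test, for 7530 of 22922 targets (32.9%). Named here are the 8 largest fitted differences in each direction, with the WT minus Keap1 null difference on the log2 scale. Several rest on values below background, so their exact size and order are not measured. Ogn, Nrep, Xlr3c, Cx3cr1 and Asb4 were not above background in the WT dish, and with the dish at its floor their WT rise is at least 7.85, 5.66, 1.51, 6.52 and 3.72. Atp13a4, Krt12 and Igsf11 were not above background in the WT allograft, where their WT change is -3.7, -1.57 and -2.9 with that group at its floor. In the Keap1 null line Cx3cr1 was not above background on any array and Krt12 and Spink6 on neither dish array.

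The WT change was higher for Ogn (8.67), a small proteoglycan, for Nrep (7.94), for Dlk1 (7.89), a Notch-like protein of fetal tissue, for Xlr4b (7.57) and Xlr3c (7.48), neighbouring genes of the X chromosome, for Cx3cr1 (7.47), for Lrrc17 (7.43) and for Asb4 (7.28). Dlk1 stood at -3.25 and -3.54 in the WT dish and -0.71 and -0.55 in the WT allograft, against 2.33 and 2.32 and then -2.56 and -3.04 in the Keap1 null line, so the lines changed in opposite directions. Xlr4b did the same, from 1.15 and 1.1 to -2.51 and -2.42 in the Keap1 null line. Ogn stood at -3.92 and -4.03 in the Keap1 null dish and at -5.1 and -3.73 in its allograft. Lrrc17 went from -5.49 and -5.8 to 2.59 and 3.11 in WT.

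The WT change was lower for Spink6 (-9.7), a protease inhibitor, Tac1 (-9.46), the precursor of substance P, Atp13a4 (-8.77), Krt12 (-7.33), Nppb (-7.1), the natriuretic peptide BNP, Igsf11 (-7.08), the phosphatase gene Ptpn5 (-6.83) and the steroid dehydrogenase gene Akr1c18 (-6.34). Spink6 was not above background on any WT array and stood at 0.32 and 0.06 in the Keap1 null allograft. Tac1 stood at -3.22 and -3.13 in the WT dish and -4.08 and -4.14 in the WT allograft, against -3.11 and -3.01 and then 5.57 and 5.36 in the Keap1 null line. Akr1c18 stood at 2.55 and 2.43 and then -1.49 and -1.01 in WT, against 2.37 and 2.34 and then 4.91 and 5.01. Nppb fell from 0.67 and 0.48 to -2.42 and -2.76 in WT and rose from -3.66 and -3.67 to 0.14 and 0.4 in the Keap1 null line.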

How the results depend on the processing

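With 2 arrays per group, each fitted change rests on 4 WT arrays, and leaving out 1 array at a time gave 13931 to 15638 called targets in the WT comparison, 7558 to 8216 higher and 6309 to 7422 lower, and 5153 to 6708 for the difference between the lines. The main counts are 15600, 8217, 7383 and 7530. Centring on the array median gave 5003 higher and 14298 lower, leaving out the scaling gave 2561 lower, and testing only probes above background on all arrays gave 4755 higher. Of the main calls 12386 were called in the same direction with median centring and 909 in the opposite one, 11587 and 209 with quantile normalization, 12563 in the same direction with normexp and 10774 without scaling. Single named genes turned direction as follows: Mki67 (-0.85), Ifit2 (-0.93), Slc7a3 (-0.58), Ddit4 (-0.59), Dusp6 (-0.37) and Xbp1 (-0.52) with median centring, Ccnb2 (0.52), Nfe2l2 (0.44) and Arhgdib (0.09) with quantile normalization, Arhgdib (0.04) without scaling, Cd3d (-0.18) and Cd8a (-0.07) with normexp, and Atp2a1 (1.17) as the mean over its probes. The normexp setting used the median spot signal because the files hold no mean signal. With the replicate block 17072 targets were called, 8711 higher and 8361 lower, with 9380 for the difference between the lines, and besides the calls named beside Lcn2, Cd3e, Hsd17b7, Acat2 and the lymphatic markers the block changed no call of a named gene in the WT comparison. A separate slide block was not run because the slide equals the replicate number.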
